A study of Mus musculus with 965 samples.

Results

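A set of 35 germline genes was followed in single cells of mouse embryoid bodies that lack either de novo DNA methyltransferase. The genes were taken by name from a list of germ cell genes known as targets of promoter DNA methylation, and all 35 were among the 36849 genes of the count table. Embryoid bodies (EBs) are clumps of differentiating embryonic stem cells (ESCs) grown after leukemia inhibitory factor is withdrawn, and the 965 cells came from EBs of 3 genotypes, all in the E14 ESC background, at days 3, 6 and 8. The 3AKO cells (homozygous Dnmt3a knockout) came from clones 3A2 and 3A38, the 3BKO cells (homozygous Dnmt3b knockout) from clones 3B126 and 3B77, and the WT (wild type) cells from 1 culture. Batch 1 held all 3AKO cells, batch 2 held 3B126 and WT, and batch 3 held 3B77, so only 3B126 can be compared with WT inside a batch, and otherwise batch and genotype cannot be told apart. Day 8 of clone 3A2 was not analysed here. For each clone and day, cells were sorted from pooled EBs, so p-values below measure the spread between clones and plates and not between repeat cultures. RNA was measured here and DNA methylation was not, so whether a promoter was methylated in these cells is not known from these values.

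Germline genes encode the proteins of germ granules, of meiotic chromosomes and of the piRNA pathway, which silences transposons in germ cells. In the mouse, many of them have CpG-rich promoters that are unmethylated in the early embryo and in primordial germ cells and that gain DNA methylation around implantation, when the epiblast leaves the naive state. DNMT3B is known as the main enzyme of that step at germline promoters, and before it the non-canonical Polycomb complex PRC1.6, which holds MGA, MAX and E2F6, represses many of the same genes through E-box and E2F sites.

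The promoters were read first, because the gene set is defined by them. RefSeq windows of 300 bases (250 before the start site and 50 after it, build GRCm38.p6) were found for 32 of the 35 genes, and Tex11, Piwil2 and Tdrd6 had none. The windows held a median of 19.5 CpG dinucleotides, against 7 over the windows of all 27025 genes, with a range of 10 to 48. All 32 held at least 10 CpG, which 43.9% of all windows did. The E-box CACGTG, which reads the same on both strands, was present in 15 of the 32 windows (46.9%), against 7.24% of all windows and 11.1% of those with at least 10 CpG. The E2F-like motif GCGGGA, searched on both strands, was present in 15 (46.9%), against 20.02% of all windows and 40.3% of those with at least 10 CpG. The windows with both motifs numbered 7 and those with neither 9. These motifs can overlap by 1 end base only, and a match describes the letters alone.

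The windows of 6 genes that the results below turn on are printed 5′ to 3′ on the strand of the gene, with CpG dinucleotides in capitals. Rpl10l (chr12:66284352-66284651, minus strand) and Dazl (chr17:50293571-50293870, minus strand) were the genes called higher in naive-like cells. Hormad1 (chr3:95559427-95559726, plus strand) and Mael (chr1:166238695-166238994, minus strand) had positive fold changes there without being called. Sycp3 (chr10:88459337-88459636, plus strand) was frequent at day 3, and Tdrkh (chr3:94412994-94413293, plus strand) ran the other way.
Rpl10l: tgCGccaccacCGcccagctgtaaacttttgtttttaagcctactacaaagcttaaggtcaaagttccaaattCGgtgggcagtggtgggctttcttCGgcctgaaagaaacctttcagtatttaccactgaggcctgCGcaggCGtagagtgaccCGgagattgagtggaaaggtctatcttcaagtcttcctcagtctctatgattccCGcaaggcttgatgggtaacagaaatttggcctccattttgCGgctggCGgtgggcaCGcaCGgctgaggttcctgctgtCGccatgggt
Dazl: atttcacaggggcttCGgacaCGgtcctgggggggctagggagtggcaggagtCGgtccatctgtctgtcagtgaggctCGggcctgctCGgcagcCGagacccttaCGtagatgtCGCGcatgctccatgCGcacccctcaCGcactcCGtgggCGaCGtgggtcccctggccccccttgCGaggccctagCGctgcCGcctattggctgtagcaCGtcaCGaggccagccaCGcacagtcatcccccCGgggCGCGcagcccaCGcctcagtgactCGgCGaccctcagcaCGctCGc
Hormad1: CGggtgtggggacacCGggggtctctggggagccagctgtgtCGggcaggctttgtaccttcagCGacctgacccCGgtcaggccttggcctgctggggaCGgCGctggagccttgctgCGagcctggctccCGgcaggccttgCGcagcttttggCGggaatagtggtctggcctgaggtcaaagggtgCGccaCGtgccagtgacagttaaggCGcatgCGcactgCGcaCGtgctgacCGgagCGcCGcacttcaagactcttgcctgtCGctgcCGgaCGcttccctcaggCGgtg
Mael: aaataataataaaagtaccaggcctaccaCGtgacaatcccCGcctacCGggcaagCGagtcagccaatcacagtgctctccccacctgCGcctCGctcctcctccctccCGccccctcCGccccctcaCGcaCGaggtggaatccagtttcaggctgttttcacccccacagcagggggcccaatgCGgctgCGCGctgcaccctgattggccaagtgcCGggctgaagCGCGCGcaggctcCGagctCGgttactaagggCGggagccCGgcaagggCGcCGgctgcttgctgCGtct
Sycp3: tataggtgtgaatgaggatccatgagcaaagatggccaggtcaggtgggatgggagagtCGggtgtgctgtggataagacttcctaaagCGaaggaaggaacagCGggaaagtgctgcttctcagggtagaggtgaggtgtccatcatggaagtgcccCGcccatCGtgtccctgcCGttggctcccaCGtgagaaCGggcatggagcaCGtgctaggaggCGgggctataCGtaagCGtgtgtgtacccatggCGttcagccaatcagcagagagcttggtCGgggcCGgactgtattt
Tdrkh: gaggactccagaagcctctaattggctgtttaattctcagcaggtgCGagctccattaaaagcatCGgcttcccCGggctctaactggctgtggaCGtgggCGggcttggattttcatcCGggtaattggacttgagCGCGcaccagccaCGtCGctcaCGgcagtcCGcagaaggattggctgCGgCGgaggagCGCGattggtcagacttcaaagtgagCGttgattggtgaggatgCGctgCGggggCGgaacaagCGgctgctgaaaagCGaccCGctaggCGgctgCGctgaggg

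Rpl10l had the sparsest of these windows, with 13 CpG, no CACGTG and 1 GCGGGA. Dazl held 28 CpG and neither motif, Hormad1 24 CpG with 2 CACGTG and 1 GCGGGA, and Mael 24 CpG with 1 CACGTG and 2 GCGGGA. The Sycp3 window had 15 CpG with 2 CACGTG and 1 GCGGGA. Tdrkh had 25 CpG and neither motif, close to Dazl on both counts.

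The 14 sums of cells by clone and day held 9810248 to 44529830 reads. Levels are CPM, reads relative to library size, scaled by edgeR's TMM factors, and they are compared between samples but not between genes, because they are not divided by transcript length. A gene was counted as seen in a cell if it had at least 1 read after each cell was thinned to 50000 reads. As a check of the labels, at day 3 Dnmt3a stood at 22.4 CPM in 3A2 and 12.9 CPM in 3A38, against 166 CPM in WT. Dnmt3b stood at 31.1 CPM in 3B126 and 30.6 CPM in 3B77, against 334.2 CPM in WT. By day 6 Dnmt3a was at 3.61 CPM in 3A2 and 2.18 CPM in 3A38, against 24.5 CPM in WT, whereas Dnmt3b was at 47.4 CPM in 3B126 and 9.52 CPM in 3B77, against 69.95 CPM in WT. In the 3AKO clones Dnmt3b was then at 67.4 CPM in 3A2 and 8.29 CPM in 3A38. Its level at day 6 therefore does not check the 3BKO labels. At day 8, Dnmt3b was at 0.801 to 4.65 CPM in all samples, with 3B126 and the cells labelled 3B77 no lower than WT, and does not check those labels. Y-linked reads went against 2 labels of day 8. Such reads (at least 3 in a cell) were found in 11 of the 40 cells labelled as 3B77 at day 8 and in no other 3BKO cell, and in 0 of 68 cells of WT plate C344, against 23 of 74 WT cells at day 3 and 36 of 67 at day 6. Day 8 values of WT below include that plate. The fits by clone and day were repeated without both, and they again called no germline gene at day 8. The comparison of cell classes at days 6 and 8, given below, lost its Dazl call without plate C344 (adjusted p = 0.0760, edgeR). Smart-seq2 reads carry no molecular identifiers, so the intervals below, which are exact 95% binomial intervals, cover counting error only. In these sums, fewer cells that express a gene and less RNA per cell cannot be told apart.

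The 35 genes were sparse. A cell held reads of 1.85 ± 2.02 of them on average (SD, 965 cells), 279 cells held none, 105 cells held 5 or more, and the highest number in a cell was 12. Tdrkh, Rpl10l and Ddx4 were seen in 21.7%, 21.1% and 14.5% of all cells. At the other end, Tex101 and Dpep3 were each seen in 1 cell. Much of a sum often came from 1 cell, and the map of levels by clone and day holds such cells too.

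**Figure D1:**
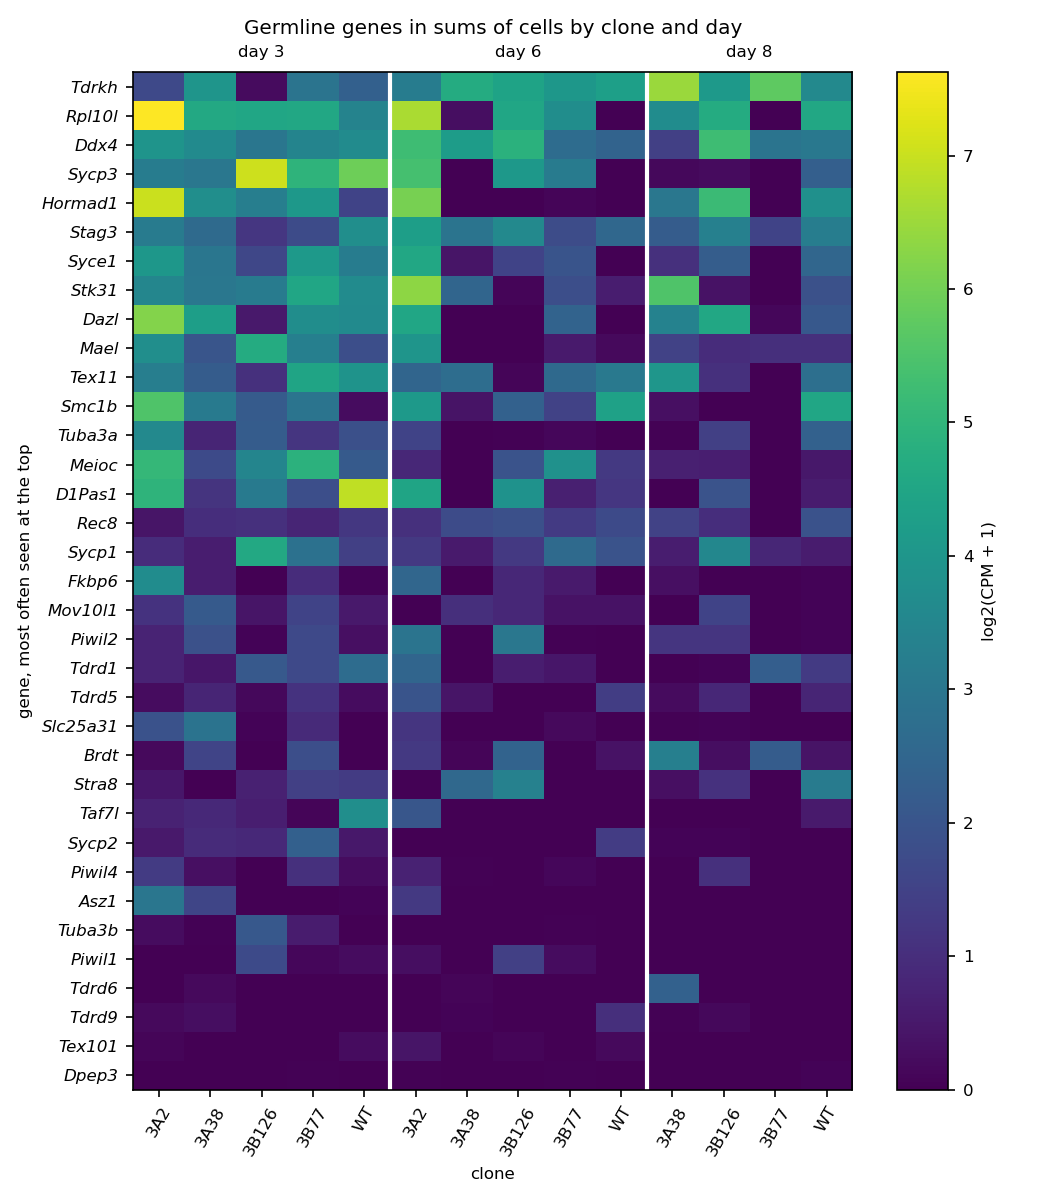
Level of each of the 35 germline genes (rows, most often seen at the top) in each sum of cells by clone and day (columns), as log2(CPM + 1) on a colour scale starting at 0. Clone 3A2 is bright in many rows at days 3 and 6, and WT at day 6 and the cells labelled 3B77 at day 8 are dark in most rows. Within each clone, Tdrkh in the top row is brighter at days 6 and 8 than at day 3, but 3A38 at day 3 is brighter than 3A2 at day 6 and WT at day 8.

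Genes of germ cell identity came first in the order of roles. Dazl encodes an RNA-binding protein needed for germ cell fate. At day 3, Dazl was at 72.9 CPM in 3A2, 18.5 in 3A38, 0.449 in 3B126 and 12.4 in 3B77, against 11.7 in WT. By day 6, Dazl was at 21.8 CPM in 3A2, 0 in 3A38, 0 in 3B126 and 4.36 in 3B77, against 0 in WT. On day 8, Dazl was at 9.44 CPM in 3A38, 22.6 in 3B126 and 0.0861 in cells labelled 3B77, against 3.32 in WT. Clone 3A2 was highest at days 3 and 6, and 3 of the 5 samples at day 6 had no reads. Dazl was seen in 28.99% of 3A2 cells at day 3 (18.7% to 41.2%), against 6.76% of WT cells (2.23% to 15.1%). In WT at day 3, 91.9% of the Dazl reads came from 1 cell, against 52.8% in 3A2. No Dazl read was found in the 67 WT cells of day 6, which allows up to 4.48% of cells with a read (3 of 67, the limit used for a count of 0 and not an exact interval), and with WT set at a floor of 3 reads per library the level in 3A2 was at least 148-fold higher.

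Ddx4, the vasa RNA helicase of germ granules, had reads in all 14 sums. At day 3, Ddx4 was at 14.3 CPM in 3A2, 11.55 in 3A38, 6.97 in 3B126 and 9.75 in 3B77, against 11.8 in WT. By day 6, Ddx4 was at 37.4 CPM in 3A2, 17.5 in 3A38, 28.5 in 3B126 and 5.53 in 3B77, against 4.38 in WT. On day 8, Ddx4 was at 1.74 CPM in 3A38, 37.7 in 3B126 and 6.63 in cells labelled 3B77, against 7.28 in WT. By level, all 4 knockout clones lay above WT at day 6, whereas at days 3 and 8 the WT value lay inside the range of the clones. The share of cells did not follow this order. Among cells of day 6 that were not naive-like, a class defined below, Ddx4 was seen in 12.5% in 3A2, 6.94% in 3A38, 21.2% in 3B126 and 9.09% in 3B77, against 11.3% in WT. A single cell gave 13.2% of all Ddx4 reads. D1Pas1 is an autosomal retrogene of the Ddx3x helicase family. At day 3, D1Pas1 was at 30.04 CPM in 3A2, 1.23 in 3A38, 7.58 in 3B126 and 2.59 in 3B77, against 118 in WT. By day 6, D1Pas1 was at 20.8 CPM in 3A2, 0 in 3A38, 13.8 in 3B126 and 0.604 in 3B77, against 1.33 in WT. On day 8, D1Pas1 was at 0 CPM in 3A38, 2.88 in 3B126 and 0 in cells labelled 3B77, against 0.501 in WT. The high WT value at day 3 rested on 1 cell with 84.9% of the reads, and the gene was seen in 4.05% of WT cells against 13.04% of 3A2 cells. D1Pas1 shares 3.63% of its 75-base stretches with an overlapping gene on the opposite strand, and no source used here says whether the counting used strand, so those reads cannot be told apart.

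Stra8 and Meioc act at the entry into meiosis. Stra8, the retinoic acid target that licenses meiosis, was seen in at most 5.62% of the cells of any sample. At day 3, Stra8 was at 0.372 CPM in 3A2, 0 in 3A38, 0.618 in 3B126 and 1.72 in 3B77, against 1.497 in WT. By day 6, Stra8 was at 0.0354 CPM in 3A2, 4.93 in 3A38, 9.16 in 3B126 and 0 in 3B77, against 0 in WT. On day 8, Stra8 was at 0.248 CPM in 3A38, 1.13 in 3B126 and 0 in cells labelled 3B77, against 8.06 in WT. Single cells carried these values, with all reads of 3B126 at day 6 from 1 cell. Meioc holds cells in meiotic prophase. At day 3, Meioc was at 32.7 CPM in 3A2, 2.28 in 3A38, 10.1 in 3B126 and 28.9 in 3B77, against 3.44 in WT. By day 6, Meioc was at 0.815 CPM in 3A2, 0 in 3A38, 2.87 in 3B126 and 13.52 in 3B77, against 1.43 in WT. On day 8, Meioc was at 0.607 CPM in 3A38, 0.565 in 3B126 and 0 in cells labelled 3B77, against 0.410 in WT. The share of cells with a read at day 3 was 13.04% in 3A2, 4.29% in 3A38, 6.85% in 3B126 and 17.7% in 3B77, against 5.41% in WT, and the 2 clones with the highest levels, 3A2 and 3B77, belong to different genotypes. At day 8 all 4 samples were at or below 0.607 CPM.

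The axis genes build the meiotic chromosome. Sycp3 encodes the lateral element of the synaptonemal complex. At day 3, Sycp3 was at 8.22 CPM in 3A2, 7.11 in 3A38, 131 in 3B126 and 29.97 in 3B77, against 60.7 in WT. By day 6, Sycp3 was at 40.9 CPM in 3A2, 0 in 3A38, 15.9 in 3B126 and 8.08 in 3B77, against 0 in WT. On day 8, Sycp3 was at 0.1104 CPM in 3A38, 0.169 in 3B126 and 0 in cells labelled 3B77, against 3.91 in WT. Both of the highest values fell in batch 2 at day 3, in 3B126 and WT, and 1 cell gave 56.95% and 45.7% of their reads. Detection at day 3 was 24.6% in 3A2, 10% in 3A38, 15.1% in 3B126 and 31.6% in 3B77, against 28.4% in WT, and at day 8 it was above 5% only in WT. About 38.4% of the 75-base stretches of Sycp3 are shared with Chpt1, whose exons overlap it on the opposite strand, and reads from there cannot be told apart. Sycp1 makes the transverse filaments. At day 3, Sycp1 was at 0.947 CPM in 3A2, 0.521 in 3A38, 23.2 in 3B126 and 6.13 in 3B77, against 1.75 in WT. By day 6, Sycp1 was at 1.42 CPM in 3A2, 0.479 in 3A38, 1.40 in 3B126 and 5.20 in 3B77, against 2.85 in WT. On day 8, Sycp1 was at 0.524 CPM in 3A38, 10.7 in 3B126 and 0.775 in cells labelled 3B77, against 0.501 in WT. It had reads in all 14 sums, with 92.5% of those in 3B126 at day 3 and 97.9% at day 8 from 1 cell each.

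Syce1 belongs to the central element of the same complex. At day 3, Syce1 was at 15.4 CPM in 3A2, 6.97 in 3A38, 2.08 in 3B126 and 16.6 in 3B77, against 8.28 in WT. By day 6, Syce1 was at 22.8 CPM in 3A2, 0.359 in 3A38, 1.89 in 3B126 and 2.95 in 3B77, against 0 in WT. On day 8, Syce1 was at 1.08 CPM in 3A38, 3.73 in 3B126 and 0 in cells labelled 3B77, against 4.69 in WT. The gene was spread over many cells, with shares at day 3 of 26.1% in 3A2, 12.9% in 3A38, 2.74% in 3B126 and 25.3% in 3B77, against 16.2% in WT. WT had none at day 6, where 3A2 was at least 155-fold and 3B77 at least 20.01-fold higher than the floor of 3 reads. Hormad1 is a HORMA-domain protein of unsynapsed axes. At day 3, Hormad1 was at 129 CPM in 3A2, 12.6 in 3A38, 8.54 in 3B126 and 15.7 in 3B77, against 1.90 in WT. By day 6, Hormad1 was at 65.8 CPM in 3A2, 0 in 3A38, 0 in 3B126 and 0.0671 in 3B77, against 0 in WT. On day 8, Hormad1 was at 7.18 CPM in 3A38, 35.9 in 3B126 and 0 in cells labelled 3B77, against 13.1 in WT. All 4 knockout clones lay above WT at day 3, by 67.9-fold in 3A2, 6.66-fold in 3A38, 4.505-fold in 3B126 and 8.29-fold in 3B77. Detection told clone 3A2 apart, with 60.9% of cells (48.4% to 72.4%) at day 3, against 5.48% to 14.3% in the other knockout clones and 4.05% (0.844% to 11.4%) in WT. The edgeR quasi-likelihood test did not call it at day 3, with a log2 fold change of 5.22 (SE 4.80) for 3AKO over WT and a Benjamini-Hochberg adjusted p of 0.801. Tex11, an X-linked gene of meiotic recombination, had reads in 13 of 14 sums. At day 3, Tex11 was at 8.66 CPM in 3A2, 3.68 in 3A38, 1.07 in 3B126 and 20.8 in 3B77, against 14.2 in WT. By day 6, Tex11 was at 4.64 CPM in 3A2, 5.60 in 3A38, 0.0754 in 3B126 and 5.06 in 3B77, against 7.42 in WT. On day 8, Tex11 was at 15.1 CPM in 3A38, 1.07 in 3B126 and 0 in cells labelled 3B77, against 5.92 in WT. WT was the highest sample at day 6 and lay inside the range of the clones at days 3 and 8.

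Of the meiotic cohesins, Rec8, the kleisin subunit, had low levels in all samples. At day 3, Rec8 was at 0.338 CPM in 3A2, 0.988 in 3A38, 1.07 in 3B126 and 0.729 in 3B77, against 1.35 in WT. By day 6, Rec8 was at 1.10 CPM in 3A2, 2.37 in 3A38, 2.60 in 3B126 and 1.44 in 3B77, against 2.26 in WT. On day 8, Rec8 was at 1.85 CPM in 3A38, 1.02 in 3B126 and 0 in cells labelled 3B77, against 2.78 in WT. Levels in samples with reads ran between 0.338 and 2.78 CPM, and its 14 shares of cells lay between 0% and 8.62%. Stag3 had reads in all sums and was seen in at least 5% of the cells in 13 of the 14. At day 3, Stag3 was at 8.05 CPM in 3A2, 5.27 in 3A38, 1.29 in 3B126 and 2.32 in 3B77, against 12.6 in WT. By day 6, Stag3 was at 18.5 CPM in 3A2, 6.71 in 3A38, 11.01 in 3B126 and 2.41 in 3B77, against 4.82 in WT. On day 8, Stag3 was at 3.67 CPM in 3A38, 8.92 in 3B126 and 1.89 in cells labelled 3B77, against 8.47 in WT. WT lay above all 4 clones at day 3 and inside their range at days 6 and 8. Smc1b is the meiotic SMC1 subunit. At day 3, Smc1b was at 44.7 CPM in 3A2, 7.57 in 3A38, 3.596 in 3B126 and 6.60 in 3B77, against 0.200 in WT. By day 6, Smc1b was at 16.2 CPM in 3A2, 0.311 in 3A38, 4.11 in 3B126 and 1.81 in 3B77, against 19.8 in WT. On day 8, Smc1b was at 0.248 CPM in 3A38, 0 in 3B126 and 0 in cells labelled 3B77, against 21.7 in WT. It had only 4 reads in WT at day 3 and was higher in all 4 knockout clones, whereas at days 6 and 8 WT was highest. A single WT cell gave 99.5% of the day 6 reads, against 34.9% at day 8. The unadjusted edgeR p for Smc1b was 0.0152 for 3AKO over WT at day 3 and 0.000436 for 3BKO over WT at day 8, and the Benjamini-Hochberg adjusted p was 0.542 and 1.

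The piRNA pathway gave 13 genes. Tdrkh is a Tudor and KH domain partner of PIWI proteins on mitochondria. At day 3, Tdrkh was at 2.23 CPM in 3A2, 14.6 in 3A38, 0.169 in 3B126 and 6.60 in 3B77, against 4.04 in WT. By day 6, Tdrkh was at 8.12 CPM in 3A2, 25.00 in 3A38, 20.6 in 3B126 and 15.5 in 3B77, against 18.8 in WT. On day 8, Tdrkh was at 87.4 CPM in 3A38, 16.4 in 3B126 and 51.9 in cells labelled 3B77, against 11.1 in WT. By level, each of the 4 samples at day 8 lay above the same clone at day 3. All 4 had a larger share of cells with a read than the 6.76% of WT at day 3, with 18.1% in 3A38, 39.2% in 3B126 and 15% in cells labelled 3B77, against 25.8% in WT. Within 3A38 the share went down in cells that were not naive-like, from 30.6% at day 3 to 17.9% at day 8. The highest value, in 3A38 at day 8, came to 84.2% from 1 cell. Of its 75-base stretches, 33.7% are shared with Oaz3 on the opposite strand. Stk31, a Tudor domain protein of the germ line, was highest in 3A2 at day 6. At day 3, Stk31 was at 10.2 CPM in 3A2, 7.16 in 3A38, 8.03 in 3B126 and 21.8 in 3B77, against 11.9 in WT. By day 6, Stk31 was at 80.1 CPM in 3A2, 4.57 in 3A38, 0.0754 in 3B126 and 2.55 in 3B77, against 0.541 in WT. On day 8, Stk31 was at 45.4 CPM in 3A38, 0.282 in 3B126 and 0 in cells labelled 3B77, against 2.73 in WT. In 3A2 at day 6 it was seen in 25% of cells, while 97.9% of its reads in 3A38 at day 8 came from 1 cell.

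Mael, a nuage protein needed for transposon silencing, had its highest levels in 3B126 at day 3 and in 3A2 at day 6. At day 3, Mael was at 12.5 CPM in 3A2, 3.02 in 3A38, 24.9 in 3B126 and 8.85 in 3B77, against 2.54 in WT. By day 6, Mael was at 14.9 CPM in 3A2, 0 in 3A38, 0 in 3B126 and 0.470 in 3B77, against 0.147 in WT. On day 8, Mael was at 1.85 CPM in 3A38, 0.960 in 3B126 and 1.03 in cells labelled 3B77, against 1.05 in WT. It was seen in 27.5% of 3A2 cells and 18.99% of 3B77 cells at day 3, against 4.05% of WT cells, while the larger 3B126 value came to 97.5% from 1 cell. Fkbp6, an immunophilin that helps to load PIWI proteins, had its highest levels in 3A2 at days 3 and 6. At day 3, Fkbp6 was at 12.1 CPM in 3A2, 0.521 in 3A38, 0 in 3B126 and 0.962 in 3B77, against 0.0499 in WT. By day 6, Fkbp6 was at 4.75 CPM in 3A2, 0 in 3A38, 0.792 in 3B126 and 0.470 in 3B77, against 0 in WT. On day 8, Fkbp6 was at 0.248 CPM in 3A38, 0 in 3B126 and 0 in cells labelled 3B77, against 0.0455 in WT. In 3A2 at day 3 it was seen in 17.4% of cells (9.32% to 28.4%), and no other sample at day 3 passed 5.06%.

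Mov10l1, the helicase that feeds piRNA precursors into processing, stayed at or below 3.46 CPM. At day 3, Mov10l1 was at 1.15 CPM in 3A2, 3.46 in 3A38, 0.337 in 3B126 and 1.89 in 3B77, against 0.449 in WT. By day 6, Mov10l1 was at 0 CPM in 3A2, 1.05 in 3A38, 0.792 in 3B126 and 0.302 in 3B77, against 0.295 in WT. On day 8, Mov10l1 was at 0 CPM in 3A38, 1.92 in 3B126 and 0 in cells labelled 3B77, against 0.0455 in WT. Piwil2, the PIWI protein MILI, had reads in 11 sums. At day 3, Piwil2 was at 0.710 CPM in 3A2, 2.69 in 3A38, 0.0562 in 3B126 and 2.22 in 3B77, against 0.249 in WT. By day 6, Piwil2 was at 6.59 CPM in 3A2, 0 in 3A38, 7.20 in 3B126 and 0.0335 in 3B77, against 0 in WT. On day 8, Piwil2 was at 1.27 CPM in 3A38, 1.24 in 3B126 and 0 in cells labelled 3B77, against 0.0455 in WT. Neither gene was seen in more than 8.70% of the cells of a sample. The other 7 genes of the pathway, Piwil1, Piwil4, Asz1, Tdrd1, Tdrd5, Tdrd6 and Tdrd9, were seen in 3 to 22 cells each, with maxima of 1.03 CPM for Tdrd9 to 7.001 CPM for Asz1. Asz1 and Tdrd9 had no reads in batch 3 and Tdrd6 none in batches 2 and 3, so for these genes clone and batch cannot be told apart.

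Of the transcription factors, Taf7l, the germ cell paralogue of a TFIID subunit, was highest in WT at day 3. At day 3, Taf7l was at 0.643 CPM in 3A2, 0.823 in 3A38, 0.562 in 3B126 and 0.0663 in 3B77, against 12.7 in WT. By day 6, Taf7l was at 3.15 CPM in 3A2, 0 in 3A38, 0 in 3B126 and 0 in 3B77, against 0 in WT. On day 8, Taf7l was at 0 CPM in 3A38, 0 in 3B126 and 0 in cells labelled 3B77, against 0.455 in WT. A single WT cell gave 91.8% of the day 3 reads. Brdt, the testis bromodomain protein, was seen in 17 cells and had at most 8.81 CPM, in 3A38 at day 8, where 96.6% of the reads came from 1 cell.

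Among the remaining genes, Rpl10l, an autosomal retrogene of the X-linked ribosomal protein gene Rpl10 that serves meiosis, was seen in more cells than any other of the 35 genes in 3A2, 3A38 and 3B77 at day 3. At day 3, Rpl10l was at 197 CPM in 3A2, 23.3 in 3A38, 22.02 in 3B126 and 22.6 in 3B77, against 9.73 in WT. By day 6, Rpl10l was at 101 CPM in 3A2, 0.216 in 3A38, 21.7 in 3B126 and 12.5 in 3B77, against 0 in WT. On day 8, Rpl10l was at 12.1 CPM in 3A38, 24.8 in 3B126 and 0 in cells labelled 3B77, against 22.6 in WT. Detection at day 3 was 72.5% in 3A2, 28.6% in 3A38, 5.48% in 3B126 and 43.04% in 3B77, against 16.2% in WT, so that the share in 3A2 (60.4% to 82.5%) and in 3B77 (31.9% to 54.7%) had intervals above that of WT (8.67% to 26.6%). By level, 3A2 was 20.2-fold above WT at day 3, and the other 3 knockout clones were 2.26-fold to 2.39-fold above it, with 91.6% of the 3B126 reads from 1 cell. At day 6 no Rpl10l read was found in the 67 WT cells, which allows up to 4.48% of cells with a read by the same limit of 3 cells, against 48.8% of 3A2 cells and 12.1% of 3B126 cells. With WT at the floor of 3 reads, the level was at least 685-fold higher in 3A2, 147-fold in 3B126 and 84.6-fold in 3B77, and at least 1.46-fold in 3A38. WT had 22.6 CPM at day 8, in 17 of 89 cells, all of them on plate C344.

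Slc25a31, the germ cell ADP/ATP carrier, had no reads in WT at any day. At day 3, Slc25a31 was at 2.77 CPM in 3A2, 6.42 in 3A38, 0.0562 in 3B126 and 0.895 in 3B77, against 0 in WT. By day 6, Slc25a31 was at 1.24 CPM in 3A2, 0 in 3A38, 0 in 3B126 and 0.134 in 3B77, against 0 in WT. On day 8, Slc25a31 was at 0.0276 CPM in 3A38, 0.0565 in 3B126 and 0 in cells labelled 3B77, against 0 in WT. Its level in 3A38 at day 3 was at least 42.9-fold and in 3A2 at least 18.5-fold above the floor, from 6 and 4 cells. Tuba3a, a testis alpha-tubulin gene, shares 19.9% of its 75-base stretches with other genes, its copy Tuba3b among them, and is uncertain for that reason. At day 3, Tuba3a was at 10.99 CPM in 3A2, 0.741 in 3A38, 3.65 in 3B126 and 1.26 in 3B77, against 2.64 in WT. By day 6, Tuba3a was at 1.88 CPM in 3A2, 0 in 3A38, 0.0377 in 3B126 and 0.101 in 3B77, against 0 in WT. On day 8, Tuba3a was at 0.0276 CPM in 3A38, 1.75 in 3B126 and 0 in cells labelled 3B77, against 4.14 in WT. Tuba3b, Tex101, a germ cell surface glycoprotein, and Dpep3, a testis dipeptidase, were seen in 6, 1 and 1 cells.

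The number of the 35 genes seen in each cell does not rest on single cells with many reads. At day 3, a cell held 4.77 ± 2.12 of the genes in 3A2, 2.60 ± 1.71 in 3A38, 0.904 ± 1.002 in 3B126 and 3.01 ± 1.68 in 3B77, against 1.62 ± 1.34 in WT (SD over 69, 70, 73, 79 and 74 cells). By day 6 these numbers were 3.30 ± 2.79 in 3A2, 0.833 ± 1.06 in 3A38, 1.07 ± 1.02 in 3B126 and 1.28 ± 1.32 in 3B77, against 0.985 ± 1.05 in WT. On day 8 they were 0.750 ± 1.40 in 3A38, 1.80 ± 1.91 in 3B126 and 0.350 ± 0.662 in the cells labelled 3B77, against 1.71 ± 2.08 in WT. At day 3, the 2 clones of each genotype lay further apart than 3A38, 3B126 or 3B77 lay from WT. The only clone of the WT batch, 3B126, lay below WT at day 3 and slightly above it at days 6 and 8. These means were not tested.

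Other properties of the cells moved with these numbers. The median number of genes seen per thinned cell at day 3 was 5092 in 3A2, 4892 in 3A38, 2645 in 3B126 and 4884 in 3B77, against 3510.0 in WT, in nearly the same order as the germline genes. The share of naive-like cells, defined below, was 62.3% in 3A2 and 11.4% to 31.6% in the other knockout clones at day 3, against 14.9% in WT, and 70% in 3A2 at day 6, against 7.46% in WT. The part of both in the differences between clones was not tested. Of the 105 cells with 5 or more of the genes, 37 were 3A2 cells of day 3 and 22 were 3A2 cells of day 6.

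**Figure D2:**
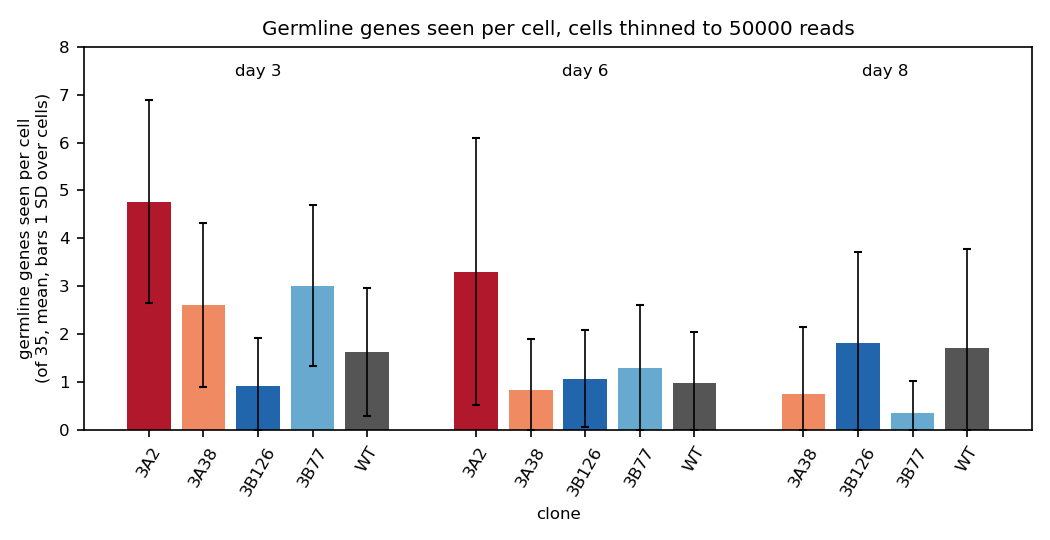
Mean number of the 35 germline genes seen per cell, with cells thinned to 50000 reads, for each clone and day. Bars show the mean and whiskers 1 SD over cells, with lower whiskers stopped at 0. Clone 3A2 was highest at days 3 and 6 (4.77 and 3.30), whereas the other clones lay on both sides of WT.

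Whether the loss of DNMT3A or DNMT3B raised these genes was asked with edgeR's quasi-likelihood test on the 14 sums, with Benjamini-Hochberg adjustment over all 24083 genes tested and a gene called at an adjusted p under 0.05. Of the 35 genes, 33 passed the filter on low counts, and Tex101 and Dpep3 did not. None of the 33 was called in 3AKO or 3BKO against WT at any day or in the mean of the days, and no gene of any kind was (0% of 24083 in each of these contrasts). At an unadjusted p under 0.05, 1 germline gene was higher and 0 lower in 3AKO at day 3, where 7.62% of all genes passed in either direction. At day 6, 3 were higher and 1 lower in 3AKO (1.42% of all genes) and 1 higher and 2 lower in 3BKO (1.86%). At day 8, 0 were higher and 1 lower in 3AKO (5.66%) and 0 higher and 2 lower in 3BKO (1.58%). In 3BKO at day 3 none of the 33 passed (3.13% of all genes), and in the mean over days 3 were higher in 3AKO, Stk31, Fkbp6 and Slc25a31 (7.08%), and 1, Smc1b, was lower in 3BKO (3.14%). Sycp2, a lateral element protein, was on the lower side in both genotypes at day 6, where it was seen in 5.97% of WT cells and in no knockout cell. A share near the background is no result about the germline genes. The shares at day 6 in both genotypes and at day 8 in 3BKO stood above it. These genes went in both directions at day 6 and down at day 8, and none passed the adjustment.

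The fitted medians pointed mostly upwards and rested on very wide errors. Over the 33 genes tested, the median log2 fold change was 1.23 in 3AKO over WT at day 3 (0.35 over all genes), 4.51 at day 6 (0.16) and 0 at day 8 (0). In 3BKO over WT it was 0.40 at day 3 (0.18), 2.21 at day 6 (0.04) and 0 at day 8 (0). The day 6 values cannot be read as sizes, because WT had no reads for 18 of the 35 genes at that day and a fitted fold against 0 depends on the prior count. Rpl10l shows the width of the errors, with a log2 fold change of 3.50 (SE 3.73) in 3AKO over WT at day 3 and an adjusted p of 0.822 by edgeR's test. DESeq2 on the same sums called Rpl10l, Dazl, Hormad1 and Sycp3 higher in 3AKO at day 6, and Rpl10l, Dazl and Sycp3 higher in 3BKO, where it called 46 and 63 genes of all kinds. It called Smc1b higher in 3AKO at day 3 (705 genes of all kinds), D1Pas1 lower in 3AKO at day 8 (514), Smc1b lower in 3BKO at day 8 (18), and none of the 35 in 3BKO at day 3 (212). In the mean over days, it called 5 germline genes higher in 3AKO (541 genes of all kinds) and 2 in 3BKO (128). Without a filter on low counts, edgeR called 3 higher in 3AKO (27 genes of all kinds) and 2 in 3BKO (73) at day 6. Without clone 3A38, edgeR called Sycp3 in 3AKO at day 6 (adjusted p = 0.0374, 5 genes of all kinds), and without 3A2 it called Sycp3 in 3BKO at day 6 (53 genes of all kinds).

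Taken clone by clone, with no test, 20 of the 35 genes were higher and 13 lower in 3A2 than in WT at day 3 by CPM. At day 6, 24 of the 35 genes were higher and 9 lower in 3A2. For 3A38 the counts were 18 higher and 16 lower at day 3, 11 and 11 at day 6, and 14 and 16 at day 8. For 3B126, which shares its batch with WT, they were 12 higher and 19 lower at day 3, 17 and 9 at day 6, and 16 and 14 at day 8. For 3B77 they were 22 higher and 11 lower at day 3 and 20 and 11 at day 6, and the cells labelled 3B77 at day 8 had 4 higher and 22 lower, with no reads at all for 27 of the 35. The remainder in each case was equal, mostly at 0 in both.

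The course over days ran downwards for most of the set. Averaged over the 3 genotypes, 26 of the 33 genes tested had a negative log2 fold change at day 6 over day 3 and 25 at day 8 over day 3, with medians of -1.88 and -2.17, against 0.11 and -0.01 over all genes. None was called by edgeR, where 0.0374% of all genes were called at day 6 over day 3 (9 genes) and 0.822% at day 8 over day 3 (198 genes, 161 of them higher). At an unadjusted p under 0.05, 6 germline genes were lower and 0 higher at day 6 (11.6% of all genes in either direction), and 6 lower and 1 higher at day 8 (16.3%). The gene on the higher side was Tdrkh, at 2.72 (SE 0.94) with an unadjusted p of 0.0115 and an adjusted p of 0.167. Meioc had the lowest adjusted p of the set, 0.155, at a log2 fold change of -4.64 (SE 1.54) at day 8 over day 3. Sycp3 was at -6.55 (SE 2.04) (adjusted p = 0.166) and D1Pas1 at -7.11 (SE 2.94) (adjusted p = 0.290), both by edgeR's test. With the clone as a block, which pairs the days of 1 line, D1Pas1 was called lower at day 8, and over all genes 394 were called at day 8 and 67 at day 6. Without clone 3A2, edgeR called 7 of the germline genes lower at day 6, with 556 genes of all kinds called, and 2 at day 8, with 1051. Without 3A38 it called 1 lower at day 6, with 140 of all kinds. DESeq2 called 6 lower at day 6, with 1428 of all kinds, and 3 lower and 1 higher at day 8, with 2697.

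Pooled over clones, the number of the genes seen per cell was also lower at later days, with 2.56 ± 2.06 per cell at day 3, 1.56 ± 1.91 at day 6 and 1.24 ± 1.79 at day 8 (SD over 365, 348 and 252 cells). Clone 3A2, the highest at days 3 and 6 (4.77 and 3.30), had no day 8 cells here. The pooled fall from day 6 to day 8 therefore cannot be told apart from this change of clones. Within 3A38 the means were 2.60, 0.833 and 0.750 at days 3, 6 and 8. In 3B77 they were 3.01, 1.28 and 0.350, the last in cells labelled 3B77. Clone 3B126 and WT did not follow this order, since both had more at day 8 than at day 6. In both, the share of naive-like cells was also higher at day 8 than at day 6, at 27.5% against 10.3% in 3B126 and 25.8% against 7.46% in WT. In WT, the higher values of day 8 rested on plate C344, whose Y-linked reads went against its label. The 21 WT cells of plate C343 held 0.0952 of the genes on average, and no cell there was naive-like.

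Cells of the same plate were compared next. Cells were called naive-like if at least 4 of 9 naive pluripotency genes (Zfp42, Esrrb, Tfcp2l1, Nr0b1, Tdh, Tcl1, Nanog, Klf4 and Tbx3) were seen after thinning. None of the 35 germline genes took part in this rule. It is a range on a count and not a cell type, as 63 cells held 3 of the 9 genes and 66 held 4, and most of these near-threshold cells were from day 3. There were 99 naive-like cells against 266 other cells at day 3 and 114 against 486 at days 6 and 8. Of 5 genes of the primed epiblast, a naive-like cell held a median of 3 at day 3, against 3 in other cells, and a median of 1 against 0 at days 6 and 8. Of 6 genes of primordial germ cells, the medians were 0 against 0 at day 3 and 1 against 0 at days 6 and 8.

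At days 6 and 8, a naive-like cell held 3.90 ± 2.41 of the 35 germline genes, against 0.844 ± 1.08 in other cells (SD over cells). All 7 plates with at least 5 cells of each class had the higher mean in naive-like cells, by 0.853 to 3.17 genes per cell. Without Tuba3a, Tuba3b, Rpl10l and D1Pas1, the means were 3.04 and 0.788 over all plates. The plate of 3B126 at day 6 then had 0.833 in naive-like and 0.885 in other cells, while the remaining plates kept their order. At day 3 the numbers were 3.41 ± 2.21 in naive-like cells, against 2.24 ± 1.91 in other cells, with the higher mean in naive-like cells on 3 of 5 plates, and 3A2 and 3B126 going the other way by 0.866 and 0.384 genes. The total number of genes seen had medians of 4098.5 in naive-like cells against 4037.5 in other cells at days 6 and 8, and 4684 against 4240.5 at day 3. Among the other cells of days 6 and 8, the 87 with a Pou5f1 read held 1.40 ± 1.34 and the 399 without one 0.722 ± 0.977 of the genes. Naive-like cells made up 66 of the 105 cells with 5 or more of the genes.

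Split by class, the clones had unlike means at day 3 in both classes. In other cells of day 3, the mean number of germline genes was 5.31 in 3A2, 2.37 in 3A38, 0.967 in 3B126 and 2.91 in 3B77, against 1.52 in WT. In naive-like cells it was 4.44 in 3A2, 4.38 in 3A38, 0.583 in 3B126 and 3.24 in 3B77, against 2.18 in WT. By day 6 the other cells of all clones were close together, at 1.08 in 3A2, 0.833 in 3A38, 0.981 in 3B126 and 1.08 in 3B77, against 0.855 in WT. The naive-like cells of day 6 still held 4.25 in 3A2, 1.83 in 3B126 and 4 in 3B77, against 2.60 in WT, from 56, 6, 5 and 5 cells. On day 8 the naive-like cells held 2.60 in 3A38 and 3.86 in 3B126, against 4.17 in WT, and the other cells of the same plates 0.612, 1.03 and 1.20. The WT value of naive-like cells at day 8 came from plate C344 alone, whose Y-linked reads went against its label, and no naive-like cell was found in 3A38 at day 6, among the cells labelled 3B77 at day 8 or on WT plate C343.

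**Figure D3:**
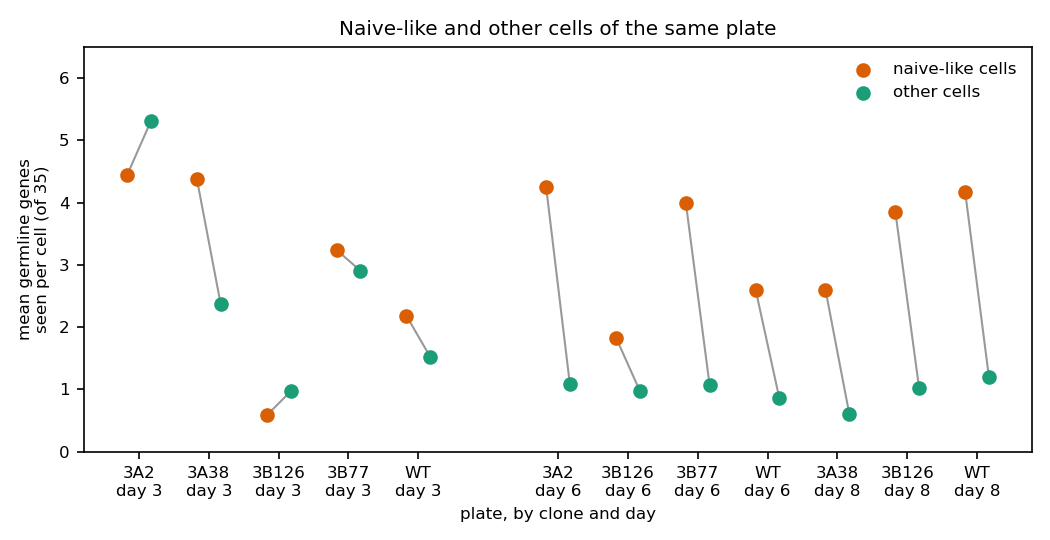
Mean number of the 35 germline genes seen per cell in the naive-like cells (orange) and the other cells (green) of the same plate, joined by a line, for the 5 plates of day 3 and the 7 plates of days 6 and 8 with at least 5 cells of each class. Naive-like cells lie above the other cells on 3 of 5 plates at day 3 and on 7 of 7 at days 6 and 8.

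By gene, 31 of the 35 were seen in a larger share of naive-like than of other cells at days 6 and 8, 3 in a smaller share (Tdrkh, Tdrd6 and Tdrd9) and Tuba3b in neither, while 39.5% of all genes had the larger share in naive-like cells. For 15 of the 35 the interval of naive-like cells lay wholly above that of other cells. The same count was not made over all genes, so this number has no background and only describes the set. Rpl10l was seen in 62.3% of naive-like cells (52.7% to 71.2%), against 2.67% of other cells (1.43% to 4.53%). For Hormad1 the shares were 35.1% against 0.823%, for Dazl 28.1% against 0.823%, and for Sycp3 27.2% against 1.03%. All 4 genes were thus rare in the other cells. These shares are pooled over plates, and 56 of the 114 naive-like cells were 3A2 cells of day 6. By plate, Sycp3 was seen in naive-like cells of 3A2 and 3B77 at day 6 and of WT at day 8 (plate C344), in 20 of 56, 4 of 5 and 7 of 23 cells, and in none on the other 4 plates. Syce1 was seen in 26.3% against 3.29%, Stk31 in 25.4% against 1.85%, Smc1b in 14.04% against 1.23% and Mael in 11.4% against 1.23%. Stag3 was seen in 28.9% against 7.41%, with the smaller share in naive-like cells on 1 of 7 plates (3B126 at day 6). Ddx4 was seen in 25.4% against 9.26%, but on 3 of 7 plates (3B126 and 3B77 at day 6 and 3A38 at day 8) it was seen in other cells alone. Tdrkh was the only gene of the 35 with the interval of naive-like cells below that of other cells, at 12.3% (6.88% to 19.7%) against 30.9% (26.8% to 35.2%). Cells of 1 plate share their source, so these intervals hold no spread between plates.

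At day 3 many of these genes were seen in both classes. Of the 35, 22 had the larger share in naive-like cells, 11 the smaller and 2 the same, while 55.97% of all genes had the larger share in naive-like cells. The interval lay above that of other cells for 4, again without a count over all genes. Rpl10l was seen in 55.6% of naive-like cells, against 24.4% of other cells, and Hormad1 in 39.4% against 9.77%. Sycp3 differed little, with 26.3% against 20.7%, and Dazl was seen in 21.2% against 9.02%. Rpl10l was thus seen in 62.3% of naive-like cells at days 6 and 8, against 55.6% at day 3, and in 2.67% of other cells at days 6 and 8, against 24.4% at day 3.

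**Figure D4:**
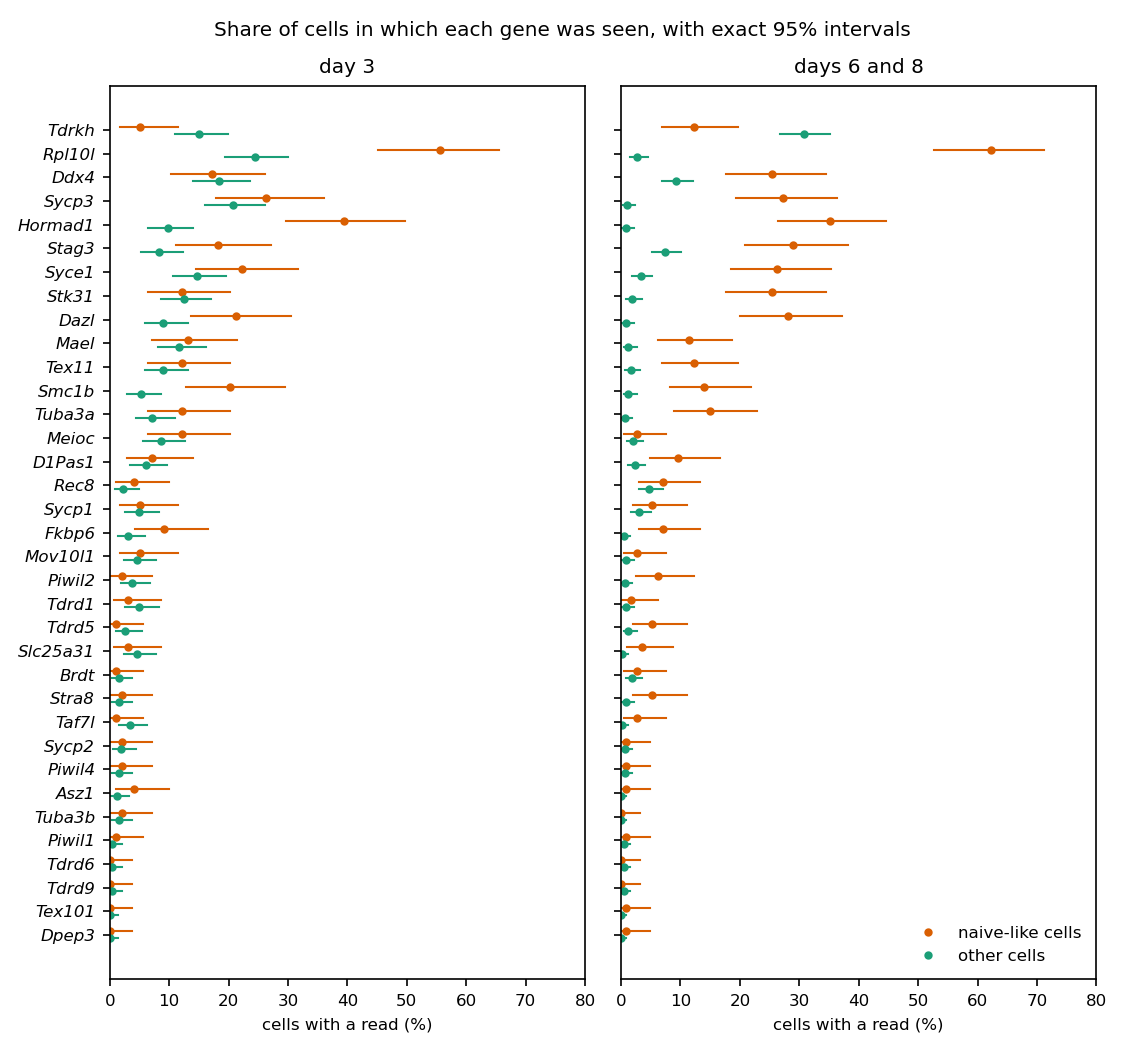
Share of cells (%) with a read of each of the 35 germline genes in naive-like (orange) and other cells (green), at day 3 (left) and at days 6 and 8 (right), with exact 95% binomial intervals as lines. At days 6 and 8 the green points of most genes lie near 0 while Rpl10l reaches 62.3% in naive-like cells, and Tdrkh has the lower share in naive-like cells (12.3%, against 30.9%).

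The replicated test used the summed counts of each class per plate, with the plate as a block. At days 6 and 8, 11044 genes were tested, 272 were called higher in naive-like cells (2.46%) and 363 lower (3.29%). Of the 35 germline genes, 14 passed the filter, which a gene high in naive-like cells alone can pass, so their number is no support by itself. Rpl10l and Dazl were called higher and none lower. Rpl10l rose by a log2 fold change of 5.06 (SE 0.47) with an adjusted p of 0.00159 in edgeR's quasi-likelihood test. On day 6 plates it was at 141 CPM in naive-like cells against 3.25 in other cells of 3A2, 169 against 4.43 in 3B126, 145 against 2.31 in 3B77 and 0 against 0 in WT. On day 8 plates it was at 109 CPM in naive-like cells against 7.76 in other cells of 3A38, 85.5 against 2.29 in 3B126 and 113 against 4.07 in WT. Naive-like cells were thus higher on 6 of 7 plates, and WT at day 6 had no reads in either class. The WT plate of day 8 was C344, whose Y-linked reads went against its label. No other WT plate of this fit had Rpl10l reads.

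Dazl rose by a log2 fold change of 6.35 (SE 1.30) with an adjusted p of 0.0257 by edgeR's test. On day 6 plates Dazl was at 29.8 CPM in naive-like cells against 2.20 in other cells of 3A2, 0 against 0 in 3B126, 61.5 against 0 in 3B77 and 0 against 0 in WT. On day 8 plates Dazl was at 179 CPM in naive-like cells against 2.07 in other cells of 3A38, 77.1 against 2.45 in 3B126 and 18.3 against 0 in WT. It was higher in naive-like cells on 5 of 7 plates and without reads on the others. The WT plate of day 8 was again C344, and no other WT plate of this fit had Dazl reads. The Dazl call was lost without the 3A38 plate of day 8 (adjusted p = 0.0576), without the WT plate of day 8 (adjusted p = 0.0760) and with the threshold for naive-like cells at 3 (adjusted p = 0.0514) or 5 genes (adjusted p = 0.161), all by edgeR. The Rpl10l call was lost only at 5 genes (adjusted p = 0.0984), where no gene of any kind was called. Set against only the other cells with a Pou5f1 read, an alternative chosen after seeing the data, Rpl10l stayed higher, at a log2 fold change of 6.39 (adjusted p = 0.0486, edgeR), and Dazl did not pass the filter.

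**Figure D5:**
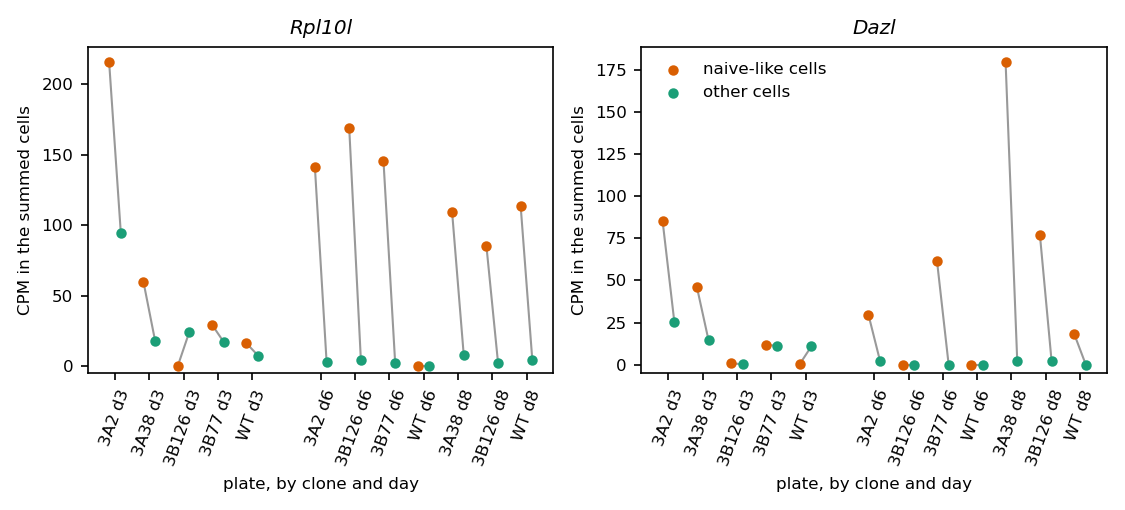
Level of Rpl10l (left) and Dazl (right) in CPM in the summed naive-like (orange) and other cells (green) of each plate, joined by a line, with day 3 plates on the left of each panel. At days 6 and 8, Rpl10l was at 85.5 to 169 CPM in the naive-like cells of 6 plates, against 2.29 to 7.76 in their other cells, and at 0 in both in WT at day 6. The WT plate of day 8 is C344, whose Y-linked reads went against its label.

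Further genes had positive fold changes that did not pass the adjustment. Hormad1 was at 3.86 (SE 1.28) (adjusted p = 0.120), Stk31 at 4.20 (SE 1.46) (adjusted p = 0.123), Mael at 4.21 (SE 1.59) (adjusted p = 0.157) and Smc1b at 3.89 (SE 1.94) (adjusted p = 0.282), as log2 fold changes from edgeR's test. By plate, Hormad1 was at 83.8 CPM in naive-like cells against 20.5 in other cells of 3A2, 0 against 0 in 3B126, 0.946 against 0 in 3B77 and 0 against 0 in WT at day 6. On day 8 plates Hormad1 was at 10.7 CPM in naive-like cells against 6.91 in other cells of 3A38, 121 against 4.42 in 3B126 and 71.5 against 0.181 in WT (plate C344). Naive-like cells were higher wherever the gene had reads. Without the 3A38 plate of day 8, Stk31 was called (adjusted p = 0.0433, edgeR). Tdrkh had a log2 fold change of -2.77 (SE 1.06) (adjusted p = 0.155). On day 6 plates Tdrkh was at 5.79 CPM in naive-like cells against 13.1 in other cells of 3A2, 0 against 21.8 in 3B126, 0 against 16.4 in 3B77 and 3.71 against 18.96 in WT. On day 8 plates Tdrkh was at 8.67 CPM in naive-like cells against 89.3 in other cells of 3A38, 28.1 against 12.3 in 3B126 and 3.76 against 19.5 in WT, so that 6 of 7 plates had less in naive-like cells and 3B126 at day 8 had more. At an unadjusted p under 0.05, 5 germline genes were higher and 1 lower, where 7.41% of all genes passed on the higher side.

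At day 3, 11915 genes and 21 of the 35 were tested over 5 plates, and none was called (0% of all genes). At an unadjusted p under 0.05, 0 of the 21 were higher and 1 was lower, D1Pas1, where 6.87% of all genes passed in either direction. Rpl10l was at 216 CPM in naive-like cells against 94.6 in other cells of 3A2, 59.9 against 18.02 in 3A38, 0 against 24.4 in 3B126, 29.4 against 17.2 in 3B77 and 16.3 against 7.53 in WT. Dazl was at 84.99 CPM in naive-like cells against 25.6 in other cells of 3A2, 45.9 against 14.4 in 3A38, 0.761 against 0.374 in 3B126, 11.9 against 11.2 in 3B77 and 0.454 against 11.04 in WT. Their log2 fold changes were 0.49 (SE 1.01) and 0.41 (SE 0.89), with adjusted p of 0.945 and 0.946 by edgeR. Whether the class difference itself was larger at days 6 and 8 than at day 3 was tested in 1 fit over all 12 plates and 14094 genes, in which 27 of the 35 passed the filter. None of them was called, the lowest adjusted p being 0.195 for Rpl10l at 4.62 (SE 1.11). At an unadjusted p under 0.05, 9 of the 27 were larger at days 6 and 8 and 0 smaller, where 7.95% of all genes passed in either direction. A gene high only in the naive-like cells of days 6 and 8 can pass this filter too, so this split is no support by itself.

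With the naive-like cells left out, an alternative chosen after seeing the data, the knockout contrasts again called none of the 33 germline genes tested. Of genes of all kinds they called 0 to 8. Over the days, Stk31 was called lower at day 6 over day 3, and Meioc, Stk31 and Sycp3 were called lower at day 8 over day 3. Over all 22534 genes of that fit, 107 were called higher and 46 lower at day 6, and 445 higher and 269 lower at day 8, so calls were more frequent than with all cells for genes of all kinds. The median log2 fold change of the 33 was -3.87 at day 6 and -3.90 at day 8, against -1.88 and -2.17 with all cells.

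Other genes of the pathway were read in the same fits. No gene of the PRC1.6 list, of the Rhox cluster, of a second list of 18 germline genes or of the naive list was called in a knockout contrast. At days 6 and 8, naive-like cells had 4 of the 5 primordial germ cell genes tested called higher by edgeR, beside 2.46% of all genes, and a gene high in naive-like cells alone can pass the filter here too. These were Prdm14, a transcriptional regulator of the naive state and of germ cell specification, at 7.67 (SE 0.91, adjusted p = 0.00204), Dppa3, which shields DNA from maintenance methylation, at 7.71 (SE 1.26, adjusted p = 0.00777), Nanos3, which keeps primordial germ cells alive, at 4.04 (SE 0.74, adjusted p = 0.0106), and Tfap2c, a germ cell specification factor, at 3.85 (SE 0.72, adjusted p = 0.0121). Dppa3 was seen in 34.2% of naive-like cells and Nanos3 in 29.8% at days 6 and 8, against 1.03% and 3.29% of other cells, and their part in the germline result was not tested. Of the second germline list, 2 of 8 tested were called, both higher. They were Nanos3 and Syce2, a central element protein, at 1.51 (SE 0.36, adjusted p = 0.0348). Of the 10 PRC1.6 genes, only Mga was called, and it was higher, at 0.96 (SE 0.21, adjusted p = 0.0238). Among the methylation genes, Tet1, which oxidises methylated cytosine, was called higher at 2.32 (SE 0.26, adjusted p = 0.00204) and Tet3 lower at -4.72 (SE 1.20, adjusted p = 0.0448), and none of the other 5 tested was called. Over the days, Dnmt3a and Dnmt3b were called lower at day 8 over day 3 in the fit over all cells, at log2 fold changes of -3.09 (adjusted p = 0.0220) and -5.96 (adjusted p = 0.00860) by edgeR.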

How the data were processed

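Single-cell RNA-seq libraries were made with Smart-seq2 and read single-end. The deposited counts are whole reads per gene and cell, which the authors made with Trim Galore 0.5.0, STAR 2.7.1a and featureCounts 1.6.1 on mm10, without multi-mapped reads, and limited to cells that passed their filters. The use of strand in counting was not stated. Counts were summed by clone and day, or by plate and class, and tested with edgeR 4.0.16 (quasi-likelihood, filterByExpr, TMM) in R 4.3.3, with Benjamini-Hochberg adjustment over all genes tested. Alternatives were DESeq2 1.42.0, other size factors, no filter, other thresholds for naive-like cells, no block, and leaving out each sample. No doublet caller was run. The 35 genes and the lists were chosen with earlier results of these data known. A gene was described in every sample if it was called, if 5% of cells held it in at least 3 samples, or if it led its group. The days of a clone share a cell line, and their deviations correlated at -0.0434 to 0.152, so the fit with the clone as a block was run too. The tests were tested on simulated data.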

Additional observations from a re-analysis of the deposited data

Results flagged for a closer look

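Over the 7 plates of days 6 and 8, the difference in Dazl level between naive-like and other cells was 177 CPM in 3A38 at day 8, where 5 naive-like cells were compared with 67 other cells, and this plate lay far from the other 6. For normally distributed values, chance singles out about 1 in 20 groups in this way. The values here include plates without a Dazl read, so that rate need not hold for them. The cause was not tested.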

How the results depend on the processing

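The log2 fold changes of Rpl10l and Dazl in naive-like over other cells at days 6 and 8 stayed positive under every alternative that tested them. The mean number of germline genes per cell changed order between the classes on some plates. Without Tuba3a, Tuba3b, Rpl10l and D1Pas1, it was 0.833 in naive-like and 0.885 in other cells of 3B126 at day 6. With at least 3 reads and no thinning, it was 1.64 and 1.81 in WT at day 3. DESeq2 called more germline genes than edgeR, with 1 higher in 3AKO at day 3, 4 higher in 3AKO and 3 in 3BKO at day 6, 1 lower in each genotype at day 8, and 5 (3AKO) and 2 (3BKO) higher in the mean of days. It called 6 lower at day 6 over day 3, and 3 lower and 1 higher at day 8. Without the filter on low counts, edgeR called 3 higher in 3AKO and 2 in 3BKO at day 6, 1 lower in 3BKO at day 8, 3 and 1 higher in the means, 5 lower at day 6 over day 3, and 3 lower and 1 higher at day 8. Leaving out each clone gave 0 to 1 higher at day 6 in 3AKO and in 3BKO, 0 to 1 lower in 3BKO at day 8 and in the 3AKO mean, 0 to 7 lower at day 6 over day 3 and 0 to 2 lower at day 8. With the clone as a replicate block, 1 gene was lower at day 8. In other cells only, 1 was lower at day 6 and 3 at day 8. In naive-like over other cells at days 6 and 8, 1 was higher with the threshold at 3 genes and 0 at 5, 1 to 2 when each plate was left out, and 1 against Pou5f1 cells only. Without the replicate block of plates, Rpl10l and Dazl were called at log2 fold changes of 4.98 and 5.78. Over all genes, DESeq2 called 18 to 705 in the knockout contrasts, 1428 at day 6 over day 3 and 2697 at day 8, and edgeR without the filter 11 to 183, 808 and 1555. With the clone block, edgeR called 67 at day 6 and 394 at day 8, and leaving out a clone gave 0 to 67 in the knockout contrasts, 1 to 556 at day 6 and up to 1051 at day 8. For naive-like over other cells at days 6 and 8, all genes called were 1097 without the filter, 59 against Pou5f1 cells only and 0 with the threshold at 5. Without thinning, mean germline genes per cell were 6.52 and 4.5 in 3A2 at days 3 and 6 and 2.55 in 3B126 at day 8. The causes were not tested. Without 3A38, 3AKO at day 8 could not be fitted. The 14 sums and the 1 WT culture limit all comparisons of genotypes.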
